A study of Mus musculus with 4 samples.

Results

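Klf1, Tal1, Lmo2, Nfe2 and Gfi1b encode erythroid transcription factors that act together with GATA1, and the H3K27ac peaks around these 5 genes were taken as every peak sharing at least 1 bp with a fixed mm9 window at each gene. The windows were chr8:87405001-87450000 for Klf1 (45.0 kb), chr4:114700001-114790000 for Tal1 (90.0 kb), chr2:103700001-103850000 for Lmo2 (150.0 kb), chr15:103050001-103110000 for Nfe2 (60.0 kb) and chr2:28440001-28510000 for Gfi1b (70.0 kb). They held 114 of the 151551 peaks in 6 lists, between 16 and 22 in each list. Of the 5 genes, 4 had broad acetylated domains in every list, and Nfe2 did not, as far as the listed peaks show.

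Acetylation of histone H3 at lysine 27 was mapped by ChIP-seq in mouse cells of strain 129. G1E cells are an immortalized line, grown from embryonic stem cells that lack Gata1, which stops at the erythroid progenitor stage, and they were left untreated. G1E-ER4+E2 cells are a subline of G1E that carries, through a virus, a GATA1-ER protein activated by hormone, and they were given estradiol at 10 nM for 24 h. Each state had 2 replicates, and the authors called peaks for each replicate and for the replicates pooled. No untreated G1E-ER4 cells were analysed here, so the subline, the hormone and the restored GATA1 activity cannot be told apart. The sources used here do not say whether the replicates came from separate cultures, so a p-value measures only the spread between these samples, which may be technical. The ChIP was done on bulk cells, in which the share of cells carrying a mark and its level per cell cannot be told apart.

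GATA1 binds GATA words in DNA and drives erythroid maturation with partners at the same elements. TAL1 is a basic helix-loop-helix protein that binds E-boxes, often beside a GATA word, and LMO2 is a LIM-domain adaptor that bridges TAL1 and GATA1 and binds no DNA itself. KLF1 is a zinc finger activator of CACCC boxes, among them that of the adult beta-globin promoter. NFE2 is the p45 subunit of the basic leucine zipper factor NF-E2, which pairs with small MAF proteins in the globin locus control region. GFI1B is a zinc finger repressor that recruits the CoREST complex and the histone demethylase LSD1. H3K27ac marks active promoters and enhancers, and it often spreads over wide domains at genes that define a cell type.

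The proximal promoters are shown to give the words for these factors that stand upstream of the genes whose acetylation is described. RefSeq sequence was held for 3 of the 5 genes, in build GRCm38.p6, and no entry was held for Lmo2 or Nfe2. The positions of the promoters are in that build and cannot be set against the peak positions, which are in mm9. Each run covers the 250 bases before the start, 5′ to 3′ on the strand of the gene. Capitals mark 2 things on either strand: a GATA word, which is AGATAN or TGATAN with A or G as its last base, and CTG with GATA after a gap of 8 bases, the arrangement of an E-box beside a GATA word.
Klf1 (chr8:84901732-84901981, plus strand): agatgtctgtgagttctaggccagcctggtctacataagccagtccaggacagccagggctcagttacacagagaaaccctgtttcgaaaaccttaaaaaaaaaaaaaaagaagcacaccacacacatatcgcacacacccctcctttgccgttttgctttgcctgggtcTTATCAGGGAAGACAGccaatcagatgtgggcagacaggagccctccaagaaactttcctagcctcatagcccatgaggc
Tal1 (chr4:115056176-115056425, plus strand): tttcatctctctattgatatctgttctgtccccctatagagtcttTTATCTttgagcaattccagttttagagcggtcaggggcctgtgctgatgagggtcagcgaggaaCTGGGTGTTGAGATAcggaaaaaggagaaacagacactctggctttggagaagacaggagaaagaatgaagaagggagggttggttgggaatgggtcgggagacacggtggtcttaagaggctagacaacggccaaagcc
Gfi1b (chr2:28621983-28622232, minus strand): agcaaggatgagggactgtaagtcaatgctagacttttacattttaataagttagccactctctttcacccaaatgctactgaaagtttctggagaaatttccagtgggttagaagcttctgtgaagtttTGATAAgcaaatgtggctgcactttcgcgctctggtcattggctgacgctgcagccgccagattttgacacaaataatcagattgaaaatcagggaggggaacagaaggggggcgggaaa

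A GATA word stood in each of the 3 promoters printed, 80 bases before the start in Klf1, 205 in Tal1 and 120 in Gfi1b, and in 26.5% of all 32851 RefSeq promoters of this length. The paired arrangement of CTG and GATA was found in Klf1, where it overlapped the GATA word, and in Tal1, 140 bases before the start, against 1.91% of all promoters. The word CCNCNCCC, a general form of the CACCC box that need not hold the letters CACCC, was read on both strands. It was found in Gfi1b at 28 and 12 bases before the start, in neither of the other promoters printed, and in 45.9% of all promoters. Neither Gfi1b match holds CACCC itself. The letters CACCC stand elsewhere, on 1 strand or the other, in each of the 3 promoters printed. A second promoter of Tal1, not printed, held 4 copies of CCNCNCCC, some overlapping and none with the letters CACCC. It held no GATA word and no pair of CTG and GATA, so the Tal1 promoter printed is the one with these words. TGAGTCA, the word of NF-E2, was in none of the promoters of the 3 genes and in 4.46% of all. These are matches of letters only, and no binding was measured at them here.

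The authors' lists differed between the cell lines in ways that bear on every value below. They held 21557 and 23451 peaks in the G1E replicates and 29087 and 26740 in the G1E-ER4+E2 replicates. These peaks covered 126.0 and 113.0 Mb in G1E and 163.0 and 161.0 Mb in G1E-ER4+E2. The median fold enrichment, a linear ratio that the authors' lists give for a whole peak over a background not named in the sources used here, was 6.69 and 7.76 in G1E and 2.98 and 3.59 in G1E-ER4+E2. The lists hold no read counts, so depth is unknown, and the part of depth in these differences was not tested. The enrichment was therefore compared between lists only as a percentile, the share of peaks in the same list with a lower enrichment. With 2 replicates against 2, the two-sided exact permutation test used throughout cannot give a p below 0.333.

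**Figure D1:**
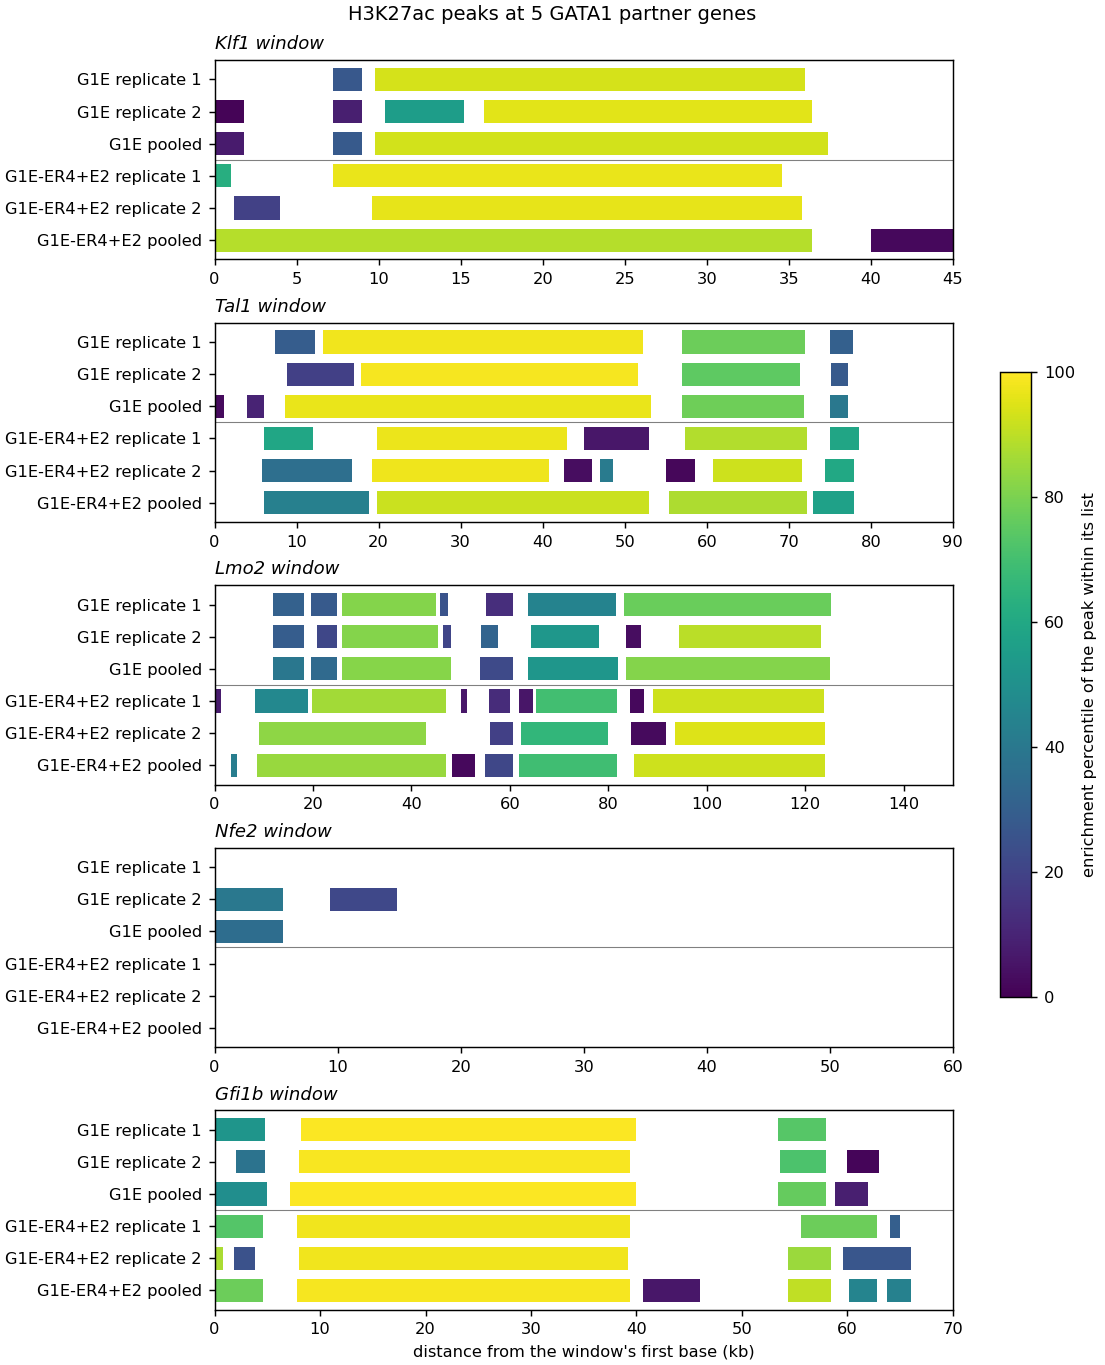
H3K27ac peaks in the windows of the 5 genes, with 1 bar for each peak in each of the 6 lists, the distance in kb from the first base of the window on the horizontal axis, and the enrichment percentile of the peak within its list as colour. Klf1 and Gfi1b each had 1 dominant domain, Tal1 and Lmo2 had several, and Nfe2 had peaks at the left edge of its window in 2 G1E lists and in no G1E-ER4+E2 list.

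Gfi1b, between Gtf3c5 and Tsc1 in the RefSeq gene order, carried the most sharply bounded domain of the 5 genes. The domain ran from chr2:28448201 to 28480000 in G1E replicate 1 and from 28448001 to 28479400 in replicate 2. It ran from 28447801 to 28479400 in G1E-ER4+E2 replicate 1 and from 28448001 to 28479200 in replicate 2. Across the 4 lists the left border moved by 0.4 kb and the right border by 0.8 kb, on lists whose borders fall on a grid of 200 bp. The width was 31.8 and 31.4 kb in G1E and 31.6 and 31.2 kb in G1E-ER4+E2, and the groups overlapped (difference -0.2 kb, exact permutation p = 0.667). Its core of 31.0 kb, from 28448201 to 28479200, lay in a peak in all 4 lists.

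The Gfi1b domain was also among the most enriched of the genome. Its enrichment was 35.0 and 37.2 in the G1E lists, at percentiles 99.44 and 99.07. In both G1E replicate lists, and in the pooled list, 0 other peaks were both as wide and as enriched. Peaks with that property numbered 16 of 21557 in G1E replicate 1 and 13 of 23451 in replicate 2. In G1E-ER4+E2 the enrichment, on the lower scale of those lists, was 13.9 and 17.9, at percentiles 97.88 and 97.73, and 29 and 32 other peaks were as wide and as enriched in these longer lists, so the counts of the 2 lines are not set against each other. Both G1E-ER4+E2 ranks lay below both G1E ranks (mean difference -1.46 percentile points, exact permutation p = 0.333). The pooled lists gave 99.3 in G1E and 98.6 in G1E-ER4+E2.

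Around the domain, Gfi1b had small peaks whose make-up changed between lists. A peak to its right ran from 28493401 to 28498000 in G1E replicate 1 and from 28493601 to 28498000 in replicate 2. In G1E-ER4+E2 it ran from 28495601 to 28502800 in replicate 1 and from 28494401 to 28498400 in replicate 2. Its percentile was 73.7 and 71.8 in G1E and 77.6 and 84.9 in G1E-ER4+E2, so it ranked higher in both G1E-ER4+E2 lists while the main domain ranked lower. Of the genome stretches found in a peak in all 4 replicate lists, 39.3% ranked higher in both where their mean G1E percentile was 70 to 80, and 53.6% ranked lower in both where it was 90 to 100. The stretch from 28504001 to 28505000, of 1.0 kb, was the longest in this window that both G1E-ER4+E2 lists held and both G1E lists lacked. In all, the window had 41.2 and 41.6 kb of acetylated length in G1E and 44.4 kb in each G1E-ER4+E2 list, the latter higher by 3.0 kb with no overlap (exact permutation p = 0.333). With only peaks from the median enrichment of the list upward, the difference was 1.2 kb and the groups overlapped (exact permutation p = 0.667). The sign turned when the lists were cut to equal covered length (-1.7 kb). Scaling each list by its covered length gave -10.2 kb, but this scaling lowers G1E-ER4+E2 windows against those of G1E by construction.

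A segment of the Gfi1b locus that the study had tested by transfection lay inside this domain in all 6 lists, between 1.28 and 2.08 kb from its right border. The primers that amplify it are shown because they tie the domain to a piece of DNA that can be made again, and they are given 5′ to 3′ with no letter marked.
Gfi1b forward primer: cttgggcacccaggacgaacttt
Gfi1b reverse primer: gttggttaagagtgatctgtactggccc

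Tal1, between Stil and Pdzk1ip1, had a main domain that was narrower in G1E-ER4+E2. In G1E it ran from chr4:114713201 to 114752200 in replicate 1 and from 114717801 to 114751600 in replicate 2, which is 39.0 and 33.8 kb. In G1E-ER4+E2 it ran from 114719801 to 114743000 in replicate 1 and from 114719201 to 114740800 in replicate 2, which is 23.2 and 21.6 kb. Neither border overlapped between the lines: the left lay 4.0 kb further right and the right 10.0 kb further left in G1E-ER4+E2, on average. The width differed by -14.0 kb, from 36.4 ± 3.68 kb in G1E to 22.4 ± 1.13 kb in G1E-ER4+E2 (SD, n = 2 each, exact permutation p = 0.333).

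The DNA beyond the right border of the Tal1 domain did not all leave the lists. G1E-ER4+E2 replicate 1 held a separate peak of 8.0 kb from 114745001 to 114753000, with an enrichment of 1.69 at percentile 6.12. Replicate 2 held a peak of 3.4 kb at percentile 3.13 and a peak of 1.6 kb at percentile 41.2. In both G1E lists nearly all of this DNA lay in the main domain, at percentiles 97.9 and 98.5. An enrichment belongs to a whole peak, so the value of this stretch by itself in G1E is not known. The pooled G1E-ER4+E2 list joined the parts again, into a domain of 33.2 kb from 114719801 to 114753000.

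The main Tal1 domain ranked slightly lower in G1E-ER4+E2, and its neighbours ranked higher. The main domain stood at percentiles 97.94 and 98.52 in G1E and 97.02 and 97.55 in G1E-ER4+E2, with no overlap (difference -0.947 percentile points, exact permutation p = 0.333). The pooled lists gave 96.51 in G1E and 92.13 in G1E-ER4+E2, on joined peaks of 44.6 and 33.2 kb. A mean percentile over all covered DNA of the window, not of the main domain alone, differed by -10.1 points. It takes in the low-ranked pieces listed apart in G1E-ER4+E2. The same measure differed by 8.91 points at Klf1, 8.94 at Lmo2 and -1.36 at Gfi1b, and the groups overlapped at Klf1 and Gfi1b. In each G1E replicate list 0 other peaks were as wide and as enriched, and in the pooled G1E list 5 were. In the longer G1E-ER4+E2 replicate lists they numbered 71 and 78. A second domain, of 15.0 and 14.4 kb in G1E and 14.8 and 10.8 kb in G1E-ER4+E2, stood at percentiles 77.6 and 75.2 in G1E and 88.3 and 92.5 in G1E-ER4+E2. In G1E-ER4+E2 replicate 2 a piece of 3.6 kb at its left was listed apart, at percentile 1.91. The peak to its right, of 2.0 to 3.6 kb, stood at 30.1 and 28.0 in G1E and 58.8 and 60.1 in G1E-ER4+E2. The first peak of the window stood at 29.0 and 18.9 in G1E and 59.2 and 36.3 in G1E-ER4+E2. All 3 of these smaller peaks ranked higher in both G1E-ER4+E2 lists, while the main domain ranked lower. Much of the genome did likewise: of the stretches found in a peak in all 4 replicate lists, 74.5% ranked higher in both where their mean G1E percentile was 20 to 30, and 39.3% where it was 70 to 80, the classes of these peaks.

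Over its whole window Tal1 had 61.6 and 58.4 kb of acetylated length in G1E and 55.6 kb in each G1E-ER4+E2 list. Both G1E-ER4+E2 values were lower (difference -4.4 kb, exact permutation p = 0.333), as they were in 30.5% of genome tiles. The difference was -18.2 kb with lists of equal covered length. It was -22.3 kb when scaled by covered length, which lowers G1E-ER4+E2 windows against those of G1E by construction. The pooled lists went the other way, with 64.8 kb in G1E and 67.8 kb in G1E-ER4+E2.

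Klf1, between Gcdh and Dnase2a, had 1 dominant domain. The domain ran from chr8:87414801 to 87441000 in G1E replicate 1, over 26.2 kb. In G1E replicate 2 the same DNA was listed as 2 peaks, from 87415401 to 87420200 and from 87421401 to 87441400. In G1E-ER4+E2 it was 1 peak again, from 87412201 to 87439600 in replicate 1 and from 87414601 to 87440800 in replicate 2, of 27.4 and 26.2 kb. On average the left border lay 4.7 kb and the right border 1.0 kb further left in G1E-ER4+E2, with no overlap between the lines (exact permutation p = 0.333 for each), and the split peak of G1E replicate 2 set most of the first of these. The 18.2 kb from 87421401 to 87439600 lay in a peak in all 4 lists. A peak of 1.8 kb from 87412201 to 87414000 stood apart in both G1E lists and was part of the domain in G1E-ER4+E2 replicate 1.

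The Klf1 domain ranked higher in both G1E-ER4+E2 lists. Its percentile was 93.71 and 95.62 in G1E and 96.85 and 96.36 in G1E-ER4+E2 (difference 1.95 percentile points, exact permutation p = 0.333). The pooled lists turned this, with 93.05 in G1E and 88.96 in G1E-ER4+E2, where the pooled peak reached 64.8 kb, from 87376601, and ran past the left edge of the window. The acetylated length in the window was 28.0 and 28.4 kb in G1E and 28.4 and 29.0 kb in G1E-ER4+E2, and the groups overlapped (difference 0.5 kb, exact permutation p = 0.667). The sign of this difference turned in the narrower window and with lists of equal covered length. It also turned under the scaling, which lowers G1E-ER4+E2 windows by construction. Only 0.2 kb was held by both G1E-ER4+E2 lists alone and 0.2 kb by both G1E lists alone.

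Lmo2, between Caprin1 and 4931422A03Rik, had several acetylated domains in the largest of the windows, and these covered 53.9% to 67.7% of it in the replicate lists, against 58.9% to 68.4% at Klf1, Tal1 and Gfi1b. The rightmost domain ran from chr2:103783201 to 103825200 in G1E replicate 1 and from 103794401 to 103823200 in replicate 2. It ran from 103789001 to 103823800 in G1E-ER4+E2 replicate 1 and from 103793601 to 103824000 in replicate 2. Its right border was held within 2.0 kb across the 4 lists, while its left border ranged over 11.2 kb, and the widths of 42.0, 28.8, 34.8 and 30.4 kb overlapped between the lines (exact permutation p = 1.0). Its percentile was 77.0 and 89.8 in G1E and 92.2 and 94.7 in G1E-ER4+E2, higher in both of the latter. The gap between the G1E replicates, of 12.8 points on this domain, was larger than the mean difference between the lines, of 10.1.

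A second Lmo2 domain began at 103725801 in both G1E lists and was 19.2 and 19.6 kb wide. In G1E-ER4+E2 it began further left, at 103719801 in replicate 1 and 103709001 in replicate 2, and was 27.2 and 34.0 kb wide. The DNA added on the left was not bare in G1E: smaller peaks lay there in both G1E lists, from 103711801 to 103718200 and up to 103724800. Both G1E-ER4+E2 lists also held DNA beside and between these peaks that both G1E lists lacked, the longest stretch of it, of 2.8 kb, from 103709001 to 103711800. Such DNA came to 6.0 kb in 4 stretches over the whole window. The domain ranked at 81.3 and 81.6 in G1E and 86.3 and 83.1 in G1E-ER4+E2. A segment that the study had tested in transgenic embryos lay inside this domain in all 6 lists, at least 7.81 kb from either border.

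The Lmo2 domain between these, from 103764201 to 103778200 in G1E replicate 2, was 14.0 to 18.0 kb wide in the 4 lists and ranked at 44.9 and 53.1 in G1E and 69.8 and 65.7 in G1E-ER4+E2. The 12.8 kb of it found in all 4 lists differed by 18.8 percentile points, close to the genome median of 19.1 for stretches at 40 to 50 in G1E, of which 61.9% ranked higher in both. The most enriched peak of the window stood at 81.31 and 89.82 in G1E and 92.25 and 94.69 in G1E-ER4+E2 (difference 7.9 percentile points, exact permutation p = 0.333), and the difference was 3.65 without G1E replicate 1 and 12.2 without G1E replicate 2. It was the second domain in G1E replicate 1 and the rightmost in the other 3 lists. The acetylated length was 97.8 and 80.8 kb in G1E and 101.6 and 94.0 kb in G1E-ER4+E2, and the groups overlapped (difference 8.5 kb, exact permutation p = 0.667). With only peaks from the median enrichment of the list upward, the difference was 18.5 kb with no overlap (exact permutation p = 0.333). The difference was 17.0 kb without G1E replicate 1 and 0.0 kb without G1E replicate 2. It turned to -0.9 kb with lists of equal covered length, and it was -19.7 kb under the scaling, which lowers G1E-ER4+E2 windows against those of G1E by construction.

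Nfe2, between Hnrnpa1 and Copz1, stood apart from the other 4 genes. G1E replicate 2 held 2 peaks at the left edge of its window, from chr15:103042401 to 103055600 at percentile 40.0 and from 103059401 to 103064800 at percentile 21.8, and the pooled G1E list held 1. G1E replicate 1 and the 3 G1E-ER4+E2 lists held 0 peaks in the window. The acetylated length was therefore 0 and 11.0 kb in G1E and 0 kb in each G1E-ER4+E2 list (difference -5.5 kb, exact permutation p = 1.0), and it rested on 1 list. In the window 10 kb wider on each side, G1E replicate 1 and G1E-ER4+E2 replicate 2 also held a peak. The difference there was -10.1 kb with no overlap (exact permutation p = 0.333). The stretch with no listed peak over the middle of the window was 97.2 and 81.0 kb long in G1E and 110.0 and 102.2 kb in G1E-ER4+E2, and between 10.6% and 20.2% of the gaps of these lists were longer. A peak list has no value for DNA outside its peaks, so these lists do not show that Nfe2 lacked H3K27ac. Whether the lists as analysed here hold every peak called in this region could not be checked, and the values of 0 kb hold for the listed peaks alone.

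**Figure D2:**
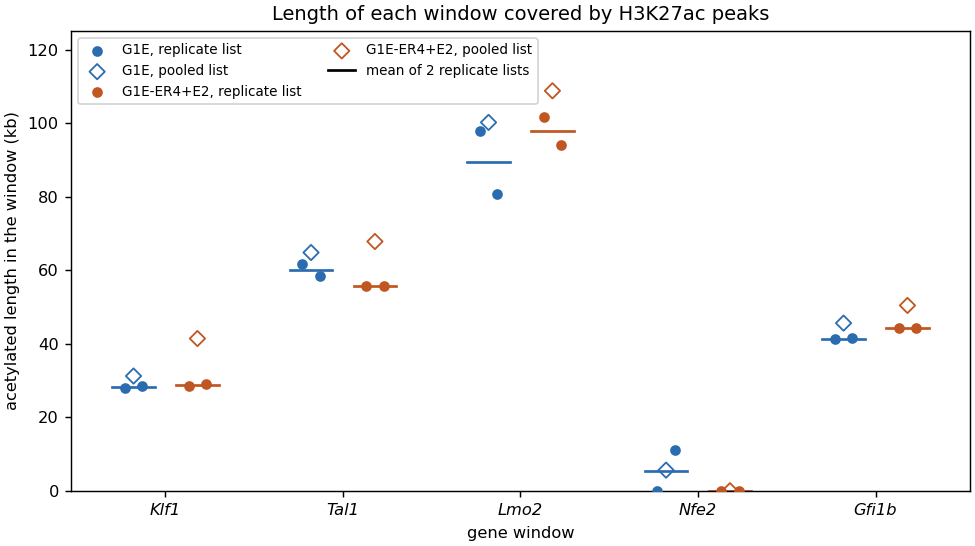
Acetylated length in kb in the window of each gene, with filled points for the 2 replicate lists of each line, bars for their means and open diamonds for the pooled lists, which are no replicates. The replicate lists of G1E and G1E-ER4+E2 were apart at Tal1, where G1E-ER4+E2 was lower, and at Gfi1b, where it was higher.

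Set side by side, the acetylated length of the 2 lines differed in both directions at these genes. It was higher in both G1E-ER4+E2 lists at 1 of 5 genes, Gfi1b, and lower in both at 1 of 5, Tal1. Among 63424 genome tiles of the same 5 lengths, 43.9% were higher in both and 30.5% were lower in both. The tiles were not placed on genes. Without any 1 of the 4 replicate lists the first count was 2 of 5, under a looser rule for which no share of tiles was computed. With each list scaled to its covered length, 4 of 5 genes were lower in both G1E-ER4+E2 lists and 0 were higher, against 42.4% and 33.6% of tiles. The scaling multiplies every window of a list alike, so a window covered to a like length in both lines turns lower in G1E-ER4+E2 by construction. The tiles are also less covered, with medians of 5.3 to 10.2 kb for the lengths of these 4 windows, whose means were 28.4 to 93.5 kb, so nothing is read from this count.

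**Figure D3:**
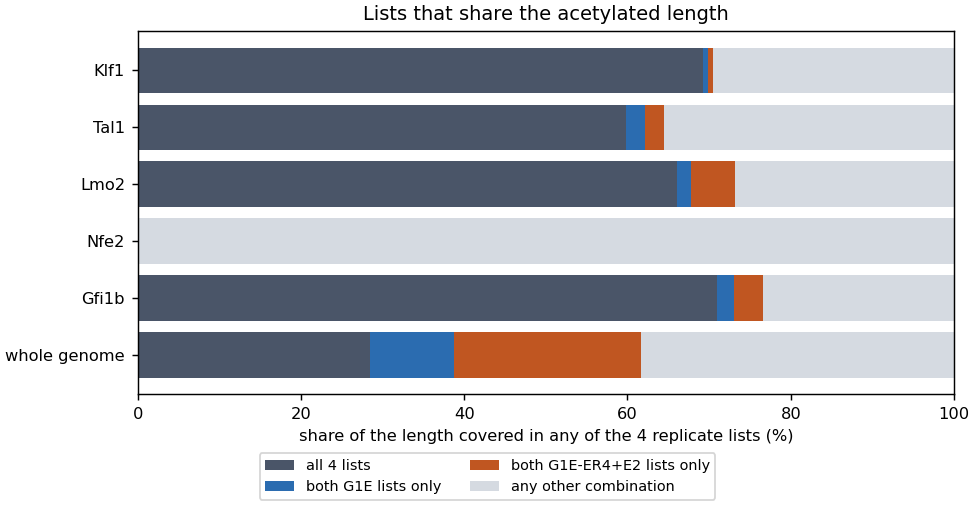
Share, in percent, of the length covered in any of the 4 replicate lists that was covered in all 4, in both G1E lists only, in both G1E-ER4+E2 lists only, or in any other combination, for each gene window and for the whole genome. The part in all 4 lists was 59.8% to 71.0% at 4 genes, 0% at Nfe2 and 28.5% in the genome.

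At the 4 genes with domains, most of the acetylated length was shared between the lines. The length in all 4 replicate lists was 69.3% of that in any list at Klf1, 59.8% at Tal1, 66.1% at Lmo2 and 71.0% at Gfi1b, against 28.5% over the genome. The length in both G1E-ER4+E2 lists alone was 0.602% at Klf1, 2.33% at Tal1, 5.42% at Lmo2 and 3.63% at Gfi1b, against 23.0% over the genome. The length in both G1E lists alone was 0.602%, 2.33%, 1.62% and 2.02% in the same order, against 10.2%. Between the 2 replicate lists of 1 line, the shared length was 68.0% to 91.7% at these genes and 70.6% and 71.2% over the genome. Between lists of different lines it was 72.4% to 89.3%, against 38.8% to 40.2% over the genome. No test was made of these shares, since the windows were placed on chosen genes and the genome was not. These windows were also more covered than 96.7% to 99.6% of tiles of their lengths, so the genome is not a matched background.

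**Figure D4:**
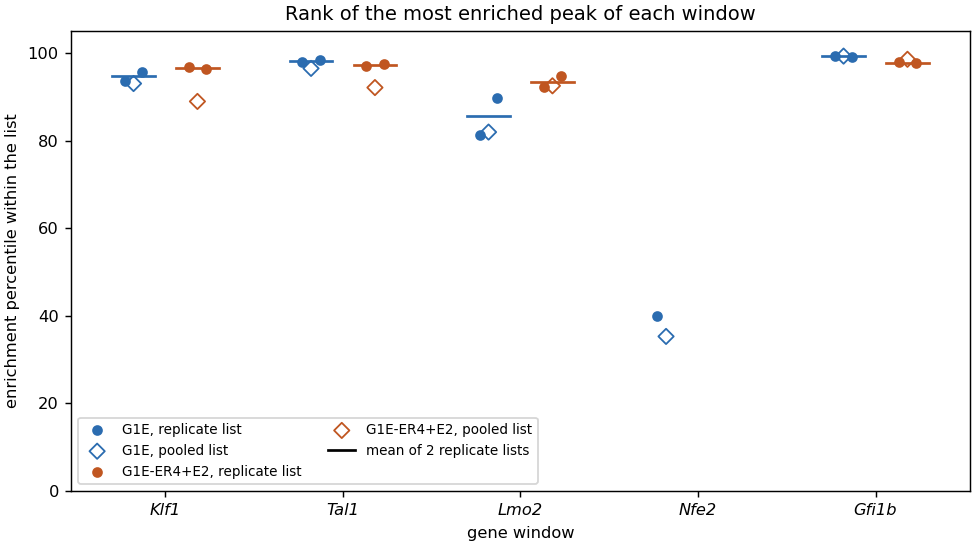
Enrichment percentile, within its own list, of the most enriched peak of each window, with filled points for the 2 replicate lists of each line, bars for their means and open diamonds for the pooled lists. The G1E-ER4+E2 replicate lists lay above those of G1E at Klf1 and Lmo2 and below them at Tal1 and Gfi1b, and Nfe2 had a value only in G1E replicate 2 and the pooled G1E list.

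In rank, the genes also differed in both directions. The most enriched peak ranked higher in both G1E-ER4+E2 lists at 2 of 4 genes, Klf1 and Lmo2, and lower in both at 2 of 4, Tal1 and Gfi1b. Among 41267 tiles with a peak in all 4 lists, 44.1% ranked higher in both and 22.7% lower in both. The members' counts are thus too few to set apart from these shares. In G1E the order of the ranks was Gfi1b, Tal1, Klf1 and Lmo2, with no overlap between the replicate values of neighbours. The order was the same in the G1E-ER4+E2 replicate lists, again with no overlap, though Tal1, at 97.02 and 97.55, and Klf1, at 96.85 and 96.36, stood closer. The pooled G1E-ER4+E2 list had another order, with Gfi1b at 98.59, Lmo2 at 92.53, Tal1 at 92.13 and Klf1 at 88.96.

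The stretches of at least 1 kb that lay in a peak in all 4 replicate lists can be ranked by the peak that covers them, and the windows held 19 of them and the genome 15572. The rank is that of the whole covering peak, whose extent differs between lists, so a split or a join changes it. The peak covering the stretch ranked higher in both G1E-ER4+E2 lists at 11 of the 19 and lower in both at 5, with 3 overlapping. Over the genome the shares were 48.3% higher and 22.2% lower. The median difference was 4.02 percentile points in the windows and 6.74 over the genome. Several stretches lie in 1 peak, so they are not independent.

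Over the genome the difference went with the rank that a stretch had in G1E, which is in part fixed, since the same G1E percentile enters the difference and the scale ends at 100. Of the 1987 genome stretches with a mean G1E percentile of 90 to 100, 14.8% ranked higher and 53.6% lower in both G1E-ER4+E2 lists, and the median difference was -4.02 points. The cores of Gfi1b and Tal1 were in that class and ranked lower, with differences of -1.46 and -0.947 points, and the core of Klf1 was in it and ranked higher, by 1.95. Of the 2476 genome stretches at 80 to 90, 26.4% ranked higher and 34.2% lower. Both Lmo2 stretches of that class, of 28.8 and 17.2 kb, ranked higher, by 10.1 and 3.21 points. The largest falls were at 2 short Tal1 stretches beyond the right border of the main domain, of 1.0 and 1.6 kb, at -93.6 and -74.6 points, where the domain of G1E was listed in parts in G1E-ER4+E2. The largest rises were at Lmo2, of 60.1 and 34.9 points for stretches of 4.0 and 6.4 kb, where small peaks of G1E were part of a larger peak in at least 1 G1E-ER4+E2 list. At Klf1 a stretch of 4.8 kb that was split off in G1E replicate 2 differed by 22.0 points. Further negative differences were at an Lmo2 stretch of 2.0 kb, of -37.8 points and lower in both G1E-ER4+E2 lists, and at a Tal1 stretch of 1.2 kb, of -31.3 points with overlapping groups.

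**Figure D5:**
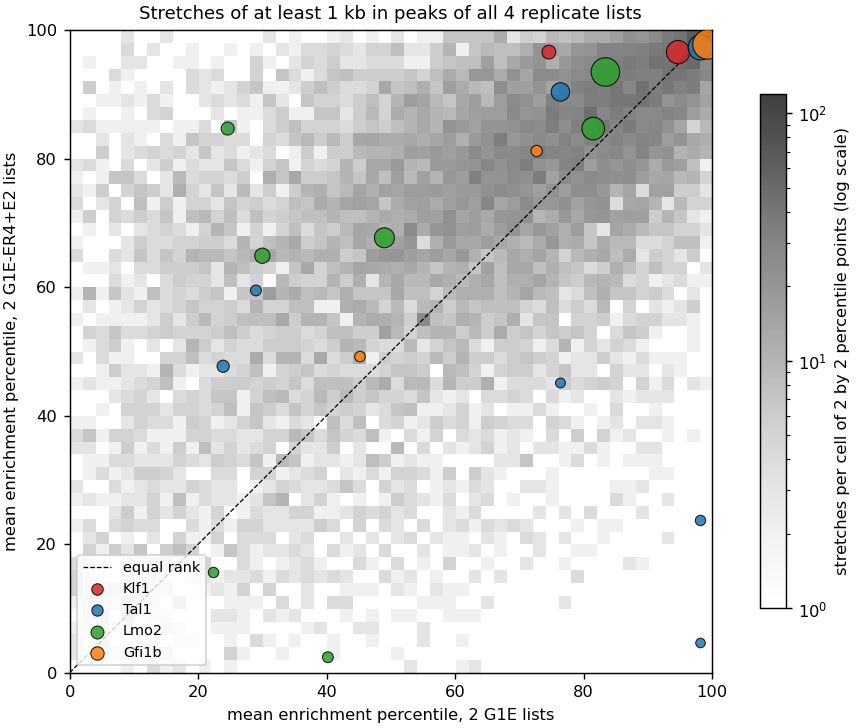
Mean enrichment percentile in the 2 G1E lists (horizontal axis) and the 2 G1E-ER4+E2 lists (vertical axis) of the peak covering each stretch of at least 1 kb found in all 4 replicate lists. Grey cells count all 15572 genome stretches on a log scale, coloured points are the 19 stretches of the windows with an area that grows with their length, and the dashed line marks equal rank. The long Klf1 and Lmo2 stretches lie above the line, the Gfi1b and Tal1 cores lie just below it at the upper right, and 3 short Tal1 stretches and 1 of Lmo2 lie far below it.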

How the data were processed

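H3K27ac ChIP-seq peak lists of G1E and G1E-ER4+E2 cells were used, with 2 replicate lists and 1 pooled list a line. The authors' processing notes name bcl2fastq 1.8.4, Bowtie 1.0.0, SICER 1.1 and mm9; parameters, the control, filters and how replicates were pooled are not given in the sources used here. The deposited lists give each peak a fold enrichment, a linear ratio, with a p-value and a q-value of at most 0.01. Peaks fall on a 200 bp grid and lie at least 800 bp apart, so nearby peaks had been joined, which moves borders and enrichments. Peaks were clipped to the windows, and enrichment was ranked within each list. Groups were compared by two-sided exact permutation tests over the 4 replicate lists, with non-overlapping tiles on the autosomes and X as background. Code was tested on simulated data. Gene names and promoters came from RefSeq (GRCm38.p6), so exons and promoters inside the mm9 windows were not assigned, and other erythroid genes were not analysed. The members and lists were chosen with earlier results of these data known. Peaks as wide and enriched, domain borders and shared stretches were chosen for description after the lists were seen. The genes named were the 5 members and their neighbours in RefSeq.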

Additional observations from a re-analysis of the deposited data

How the results depend on the processing

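Of 70 alternative values of the acetylated length difference, 42 kept their direction at another value, 16 were equal to the reported value, 8 reversed and 4 were 0. Of 48 of the rank difference, 1 reversed, 23 kept direction at another value, and 24 were equal to the reported value. Values that a setting could not move, such as a mean under the replicate block or a rank whose top peak stayed in place, say nothing of stability. The length difference was 0.0 kb at Klf1 when only peaks lying mainly in the window counted, and 0.0 kb at Nfe2 when only peaks from the median enrichment upward did. With the lists cut to equal covered length, the length difference was -0.9 kb at Klf1, -0.9 kb at Lmo2 and -1.7 kb at Gfi1b. Scaled to covered length, it was -8.3 kb at Klf1, -19.7 kb at Lmo2 and -10.2 kb at Gfi1b. This scaling lowers G1E-ER4+E2 windows by construction, so the signs under it, kept or reversed, say little of stability. In the window 5 kb narrower on each side it was -0.5 kb at Klf1. The pooled lists gave 3.0 kb at Tal1 and -4.09 percentile points at Klf1. The genes with more length in both G1E-ER4+E2 lists, 1 as reported, numbered 2 at a q-value of at most 1e-10 and in the window 10 kb wider, and 0 with equal or scaled covered length. With only peaks from the median enrichment upward the count was still 1, but the gene was Lmo2 and no longer Gfi1b. The count was 2 without any 1 of the 4 replicate lists, where 1 line is left with 1 list and a gene is more easily counted. These runs gave length differences of 2.8 to 3.2 kb at Gfi1b, 0.2 to 0.8 at Klf1, 0.0 to 17.0 at Lmo2, -11.0 to 0.0 at Nfe2 and -6.0 to -2.8 at Tal1. The rank differences ran from -1.64 to -1.27 at Gfi1b, 0.99 to 2.9 at Klf1, 3.65 to 12.2 at Lmo2 and -1.23 to -0.662 at Tal1.

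The lines share replicate numbers, but no source says what a number pairs, and same-numbered lists deviated the same way at 2 of the 2 genes whose replicates differed in both lines; at the other 3 the G1E-ER4+E2 replicates were equal. With the replicate block, the length differences were the same (0.5, -4.4, 8.5, -5.5 and 3.0 kb at Klf1, Tal1, Lmo2, Nfe2 and Gfi1b), and the sign-flip test of 2 pairs cannot go below 0.5. The causes of these changes were not tested. Depth is unknown, and the exact permutation test of 2 lists against 2 cannot pass 0.05.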
